A study of Mus musculus with 23 samples.

Results

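Heat shock proteins and their partners are the chaperones of the cell. Proteins of the Hsp70 family bind unfolded stretches of other proteins in cycles driven by ATP, the J proteins (*Dnaja*, *Dnajb* and *Dnajc* genes) deliver clients and start ATP hydrolysis, and nucleotide exchange factors such as the Hsp110 proteins, HspBP1 and the BAG proteins reset the cycle. Hsp90 acts later on signaling proteins, *Hspa5* (BiP) and *Hsp90b1* (Grp94) work in the ER, and *Hspd1*, *Hspe1* and *Hspa9* in mitochondria. Some members, such as *Hspa1a*, *Hspa1b*, *Dnajb1*, *Hsph1* and *Hspb1*, are known for their induction by heat shock factor 1, whereas *Hspa5* and *Dnajb9* are known targets of the unfolded protein response.

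The members were all genes whose symbols start with Hsp followed by a digit or by a, b, d, e or h, or with Dnaja, Dnajb or Dnajc and a digit, together with *Bag1* to *Bag6*. The rule found 81 of 21878 genes in the tables of sorted neutrophils, and all 81 symbols were found among 55335 genes of the whole-lung table. A further 12 matching symbols stood only in the whole-lung table and were not counted. No expression value entered the rule. Of the 81, *Hspbap1*, *Hspb11* and the pseudogene *Dnajc19-ps* matched the rule by symbol and were placed in no chaperone group.

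Bulk RNA-Seq of 3 experiments was compared. In the tissue experiment, CD45+CD11b+Ly6G+ neutrophils were sorted from lung, peripheral blood (PB) and bone marrow (BM) of WT mice (3 libraries each). In the *Piezo1* experiment, 2 libraries each were made from lung and PB neutrophils of WT mice and of conditional knockouts (*Piezo1*-cKO). In the latter Cre under the *Vav1* promoter, which acts in blood cells at large and not only in neutrophils, removed exons of the mechanosensitive channel PIEZO1. In the third, whole lungs of control and neutrophil-depleted (PMN deletion) mice were sequenced without sorting (3 libraries each), the depletion being by an antibody against Ly6G according to the methods. The mice were young adults of both sexes by the methods. The labels say WT for the controls and do not say which libraries came from separate mice, so p values measure the spread between libraries. Values are FPKM, fragments scaled to transcript length and to library size, which can be compared between genes. Differences are log2 fold changes of FPKM + 1 with their SE, and adjusted p values are Benjamini-Hochberg values from limma-trend over all genes tested.

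The libraries of sorted cells held 9621002 to 19330763 reads assigned to genes, and a floor of 3 reads amounted to 0.155 to 0.312 CPM. Neutrophil markers summed to 42749 to 143053 FPKM in every sorted library, while those of B cells, epithelium and fibroblasts stayed below 3 FPKM and those of monocytes and macrophages summed to 50.9 to 174 FPKM. Genes of immature neutrophils, among them *Ltf* and *Ngp*, summed to 34307 to 35452 FPKM in BM against 524 to 2932 FPKM in lung and PB. PB replicate 3 of the tissue experiment stood apart, with a chi-square per gene of 27.0 and 45.1 against its 2 replicates, where all other replicate pairs of sorted cells gave 1.95 to 5.24. The whole-lung values did not resolve into whole reads, so their depth is unknown. Most genes were lower in lung than in PB in FPKM: the all-gene median of the log2 fold change came to -0.54 in the tissue experiment and -0.62 in WT of the *Piezo1* experiment, and -0.70 for lung against BM. Changes are therefore also given after FPKM were rescaled by the median ratio between libraries, which sets most genes near no change.

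*Hspa5* was the most abundant member in lung neutrophils, and with it the ER group had the highest summed level. The 81 members summed to 1227 ± 7.79 FPKM in lung, 1119 ± 34.8 in PB and 942.2 ± 15.0 in BM (SD, n = 3). *Hspa5* alone made up 33.8% to 34.5% of that sum in lung, 15.4% to 16.9% for PB and 9.12% to 9.50% for BM. The 13 ER chaperones and J proteins together reached 526 ± 3.84 FPKM in lung against 292 ± 9.07 in PB and 206 ± 5.02 in BM, of which *Hspa5* made up 79.6% to 80.3%, 62.6% to 63.0% and 42.6% to 42.8%. Without it the other 12 summed to 106.0 ± 1.52, 108.8 ± 3.92 and 117.9 ± 2.94 FPKM, and were not higher in lung before rescaling. Rescaling multiplied lung by 1.22 to 1.23 and PB by 0.809 to 0.821, and against BM lung by 1.26 and BM by 0.793 to 0.798. The order of these 12 genes' sums therefore depends on the scaling. Another 16 class C J proteins were placed in neither the ER nor the mitochondrial group. These 16 summed to 109.9 ± 1.72 FPKM in lung, 199 ± 6.08 in PB and 215 ± 6.75 in BM. The small heat shock proteins were nearly absent, at 0.405 to 1.70 FPKM summed over 7 genes in the libraries of the tissue experiment.

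**Figure D1:**
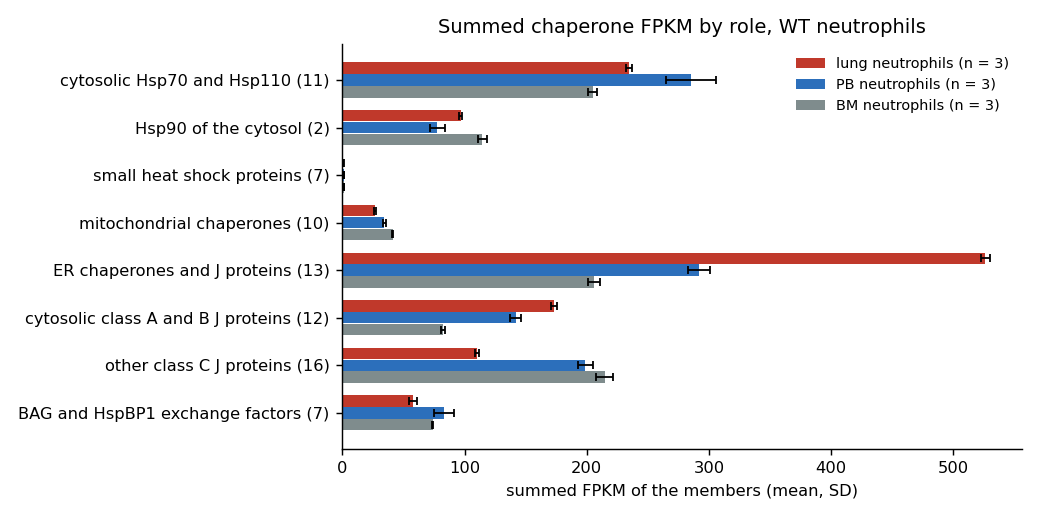
Summed FPKM of the members by role (number of members in parentheses) in lung, PB and BM neutrophils of WT mice; bars are means over 3 libraries and error bars are SD. The ER group is highest in lung, at 526 FPKM, most of it *Hspa5* (106.0 FPKM without that gene), while class C J proteins are lowest there.

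Lung against PB neutrophils asked which transcripts mark neutrophils held in the lung vasculature. Of the 81 members, 48 reached 1 FPKM in 3 or more libraries and were tested, and 33 did not. Seen against all genes, 7 members were called higher (adjusted p below 0.05 and a log2 fold change above 1), 14.6% where 7.75% of all genes tested were called higher, and 4 were called lower, 8.33% where 19.5% of all genes were. The members' median log2 fold change was -0.44, close to the -0.54 of all genes. With rescaled FPKM, 11 members were called higher and 1 lower, where 902 and 500 of 7577 genes were called. Without PB replicate 3, 7 were called higher and 4 lower. A gene that passed the filter only because it is high in one tissue had to differ, so these counts describe the members that were measurable. In bulk RNA a difference in the share of cells that express a gene and a difference in RNA per cell cannot be told apart.

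The *Piezo1* experiment compared lung with PB in separate WT libraries, which share none with the tissue experiment. There, 8 of 46 members tested were called higher, 17.4% where 7.50% of all genes were, and 7 were called lower, 15.2% where 26.5% were. With rescaled FPKM the counts were 12 and 2. Of the 42 members tested in both experiments, 7 were called higher in each, and 5 were the same genes: *Dnajb2*, *Hspa13*, *Hspa4l*, *Hspa5* and *Hspa9*. These are 71.4% of each list, and among all genes tested in both, 79.5% of those called higher in the first experiment and 84.9% of those in the second were called in both. *Dnajc28* was called lower in both, out of 3 and 6 members (33.3% and 16.7%), where among all genes 74.9% and 57.9% of those called lower were shared. *Dnajc28* passed the filter only through PB in both experiments, and *Hspa13* only through lung in the *Piezo1* experiment. Such genes had to differ, so these calls describe only that they were measurable.

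**Figure D2:**
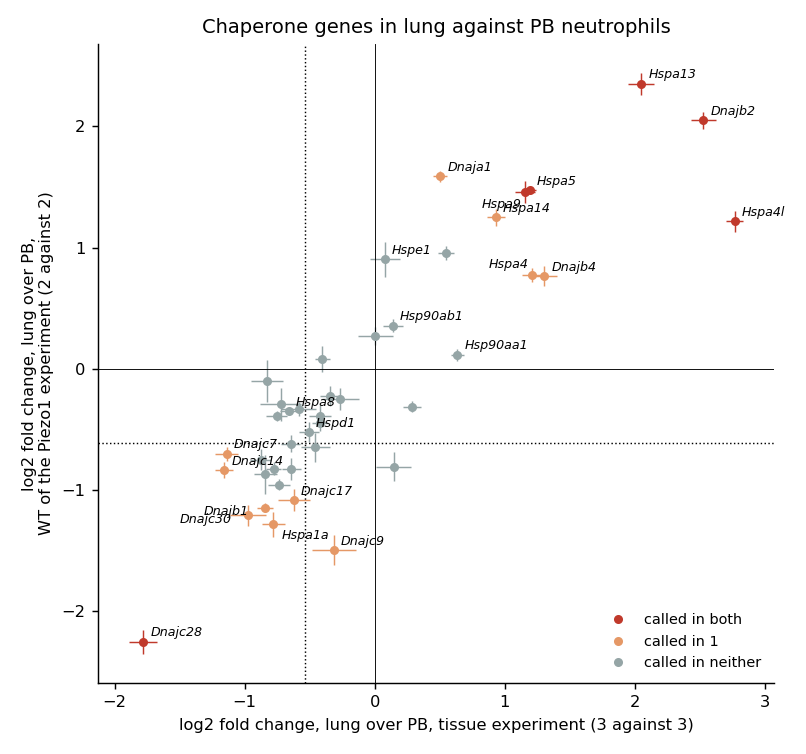
Log2 fold change of lung over PB neutrophils for the 42 members tested in both experiments, with the tissue experiment on the x axis and WT of the *Piezo1* experiment on the y axis; bars are SE and dotted lines are the medians of all genes tested (-0.54 and -0.62). The 5 red points at the upper right are the members called higher in both, and *Dnajc28* at the lower left was called lower in both.

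*Hspa5*, which encodes the ER Hsp70 BiP (chr2:34772090-34776529, GRCm38), had the highest level of any member in lung. Its FPKM was 425, 415 and 421 in the lung libraries, 188, 184 and 178 in PB and 86.8, 90.2 and 86.4 in BM. Every lung library lay above every PB library, and every PB library above every BM library. *Hspa5* was higher in lung than in PB by 1.19 ± 0.049 on the log2 scale (adjusted p = 1.77e-07), and its log2 fold change was 2.25 ± 0.024 for lung against BM (2.33e-13) and 1.05 ± 0.049 for PB against BM (4.45e-07). In the *Piezo1* experiment it was at 477 and 466 FPKM in WT lung and 171 and 168 in WT PB, a log2 fold change of 1.47 ± 0.025 (adjusted p = 6.47e-09). Rescaling did not change these calls (log2 fold change 1.79 for lung against PB and 2.90 for lung against BM).

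The ER chaperones did not move as a block. *Hspa13* (Stch), a truncated Hsp70 of the ER and microsomes, was at 11.4, 11.5 and 13.8 FPKM in lung against 1.88, 2.27 and 2.44 in PB (log2 fold change 2.05 ± 0.10, adjusted p = 5.98e-07), with BM between them at 5.48, 6.28 and 5.31. *Hsp90b1*, the ER Hsp90, ran in the opposite order to *Hspa5*, at 15.8, 15.2 and 15.3 in lung, 22.2, 20.9 and 19.96 in PB and 43.3, 45.2 and 42.2 FPKM in BM. It was called lower in lung than in BM (-1.44 ± 0.039, adjusted p = 1.78e-10) and lower in PB than in BM (-1.02 ± 0.059, 1.46e-06), although with rescaled FPKM neither difference passed 1 (-0.80 and -0.96). *Dnajc3* (p58IPK), an ER J protein that also binds eIF2 kinases, followed *Hsp90b1*: 3.12, 3.13 and 3.21 in lung, 5.85, 5.45 and 5.15 in PB and 7.31, 8.22 and 8.12 FPKM in BM, with a log2 fold change of -1.09 ± 0.064 for lung against BM that became -0.55 after rescaling. *Dnajb9* (ERdj4), which brings misfolded clients to BiP, was at 49.9, 53.7 and 51.8 FPKM in lung, 44.03, 44.7 and 38.3 in PB and 13.1, 11.9 and 13.3 in BM, and was called higher in lung (1.94 ± 0.048) and in PB (1.65 ± 0.076) than in BM. Its difference between lung and PB was 0.29 ± 0.07 in the tissue experiment and -0.31 ± 0.045 in the *Piezo1* experiment, and after rescaling it was 0.87 and 0.32, so its direction in the second experiment depends on the scaling.

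The promoters of *Hspa5*, *Dnajc3* and *Hsp90b1* are printed because they hold the same element while *Hspa5* ran in the opposite order across the tissues to *Dnajc3* and *Hsp90b1*. The canonical ER stress element, CCAAT and CCACG with any 9 bases between them, was searched on both strands of RefSeq promoters (GRCm38.p6, 250 bases before to 50 after a start). It was in 39 of 32851 promoters (0.119%) and, among the 65 members with a promoter in that table, in those 3 genes. Each line gives the 250 bases before the start, 5′ to 3′ on the gene's strand, with the element in capitals; *Hsp90b1* holds it once on each strand.
Hspa5, chr2:34771840-34772089, strand +: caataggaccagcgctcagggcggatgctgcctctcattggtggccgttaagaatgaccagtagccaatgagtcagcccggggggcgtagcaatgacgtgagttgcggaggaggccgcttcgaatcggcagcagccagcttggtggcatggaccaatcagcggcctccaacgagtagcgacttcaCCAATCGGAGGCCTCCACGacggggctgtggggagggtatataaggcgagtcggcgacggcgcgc
Dnajc3, chr14:118937682-118937931, strand +: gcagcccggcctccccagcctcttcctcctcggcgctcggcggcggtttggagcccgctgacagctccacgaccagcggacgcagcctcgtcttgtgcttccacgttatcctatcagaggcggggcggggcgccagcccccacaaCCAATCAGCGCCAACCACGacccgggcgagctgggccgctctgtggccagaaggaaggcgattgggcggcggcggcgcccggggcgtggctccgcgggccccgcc
Hsp90b1, chr10:86705445-86705694, strand -: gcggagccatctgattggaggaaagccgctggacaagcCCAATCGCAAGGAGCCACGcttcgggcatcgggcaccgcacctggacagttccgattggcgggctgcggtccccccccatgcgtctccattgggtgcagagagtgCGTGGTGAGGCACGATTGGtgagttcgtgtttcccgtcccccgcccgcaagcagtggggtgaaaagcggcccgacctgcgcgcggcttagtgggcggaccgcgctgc
The match in *Hspa5* lies 65 to 47 bases before the start, and *Hspa5* was 4.74-fold higher in lung than in BM on the FPKM + 1 scale. In *Dnajc3* the match lies 105 to 87 bases before the start, and the transcript in lung was at 0.468 times its BM level on the same scale. A match is a description of letters and not a measured binding site.

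In the cytosolic Hsp70 and Hsp110 group the constitutive member *Hspa8* (Hsc70) was the most abundant, at 161, 161 and 156 FPKM in lung, 245, 237 and 275 in PB and 179.8, 180.0 and 172 in BM. PB libraries were the highest and did not overlap with either other tissue. Its log2 fold change of -0.66 ± 0.065 in lung against PB was close to the median of all genes, and after rescaling it was -0.07 here and 0.29 in the *Piezo1* experiment, so that its direction depends on the scaling. *Hspa4l* (Apg-1, chr3:40744500-40796103), an Hsp110 protein, had the largest difference of any member between lung and PB in the tissue experiment: 28.3, 28.8 and 29.6 FPKM in lung against 3.62, 3.41 and 3.15 in PB and 3.19, 3.61 and 3.57 in BM. The log2 fold change for lung against PB was 2.77 ± 0.066 (adjusted p = 1.14e-08), and PB and BM did not differ beyond their spread (-0.02 ± 0.081, adjusted p = 0.83). In WT of the *Piezo1* experiment *Hspa4l* was lower overall but again higher in lung, at 5.71 and 5.27 against 1.83 and 1.76 FPKM (1.22 ± 0.087, adjusted p = 7.88e-06). Its relative *Hspa4* (Apg-2) showed 32.9, 31.9 and 32.05 FPKM in lung and 12.3, 13.4 and 14.7 in PB (1.21 ± 0.07), and in the second experiment the difference of 0.77 ± 0.058 did not pass the fold change threshold except after rescaling (1.38). The third Hsp110 gene, *Hsph1*, which is strongly induced by heat, had only 2 to 15 reads per library in the tissue experiment and 0 to 13 in the *Piezo1* experiment.

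The heat-inducible Hsp70 genes were highest in blood in the tissue experiment. *Hspa1a* was at 1.79, 1.87 and 2.21 FPKM in lung, 4.401, 3.9 and 3.94 in PB and 0.112, 0.3698 and 0.292 in BM, and *Hspa1b* was at 1.72, 1.72 and 1.42 in lung, 4.16, 4.85 and 4.54 in PB and 0.631, 0.976 and 1.39 in BM. For both genes every PB library lay above every lung library, and every lung library above every BM library. PB exceeded BM by 2.02 ± 0.098 for *Hspa1a* (adjusted p = 6.23e-07) and 1.48 ± 0.14 for *Hspa1b* (2.82e-05). Both genes passed the filter of that comparison only through PB. Lung against PB gave -0.78 ± 0.089 and -1.07 ± 0.09, of which only the latter passed the fold change threshold, and it did not after rescaling (-0.64). In the *Piezo1* experiment *Hspa1a* was again lower in WT lung, at 2.21 and 1.74 against 6.15 and 6.26 FPKM (-1.28 ± 0.10, adjusted p = 1.37e-05; -0.79 after rescaling), while *Hspa1b* was at 0.096 and 0.189 in WT lung and 0.216 and 0.142 in WT PB, which overlap and rest on 4 and 8 against 8 and 6 reads. The 2 genes lie next to each other on chromosome 17 (34969359-34972156 and 34956429-34959238) and share sequence: 54.2% of the 75-base windows of the *Hspa1a* transcript and 55.8% of those of *Hspa1b* occur in another gene's transcript, so the split of reads between them is uncertain. *Dnajb1* (Hsp40), the heat-inducible J protein that works with them and none of whose windows is shared, had the same order, with 19.9, 18.98 and 18.3 FPKM in lung, 36.97, 33.3 and 34.8 in PB and 16.1, 15.98 and 15.7 in BM. Its log2 fold change was 1.09 ± 0.057 for PB against BM, -0.84 ± 0.062 for lung against PB and -1.15 ± 0.041 for lung against PB in the second experiment, and after rescaling the latter differences were -0.27 and -0.52.

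**Figure D3:**
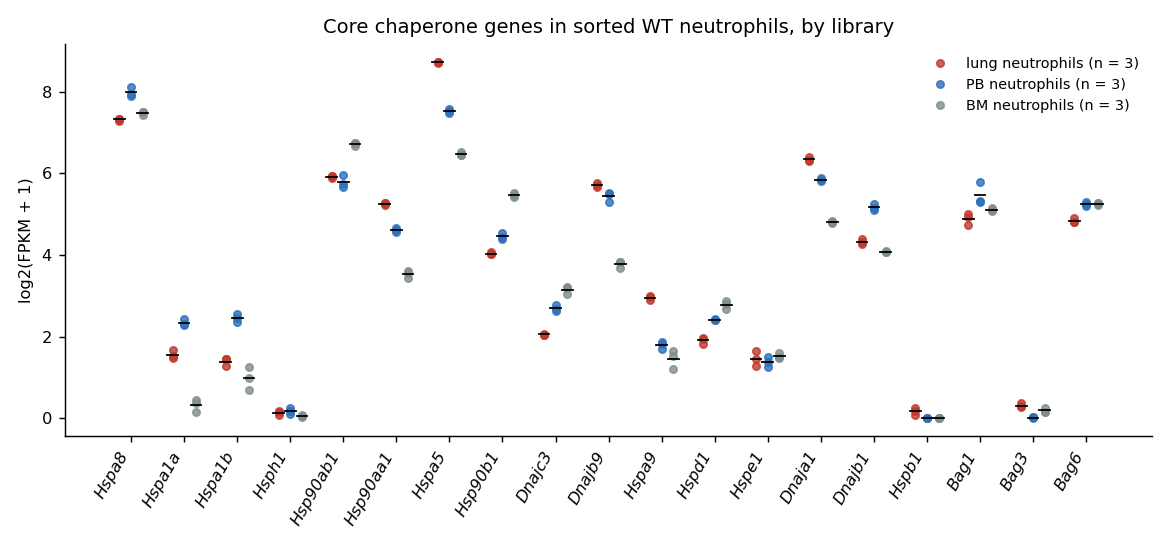
Log2(FPKM + 1) of 19 core chaperone genes in each library of lung, PB and BM neutrophils from WT mice; points are libraries and black lines are means. *Hspa5* and *Hsp90aa1* fall from lung to PB to BM, *Hsp90b1* and *Hspd1* run the other way, *Hspa1a*, *Hspa1b* and *Dnajb1* are highest in PB, and *Hsph1*, *Hspb1* and *Bag3* lie near 0.

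The 2 cytosolic Hsp90 genes had opposite orders between BM and the other tissues. The inducible *Hsp90aa1* was at 37.6, 36.4 and 37.5 FPKM in lung, 22.7, 23.7 and 24.3 in PB and 11.3, 10.7 and 9.78 in BM, and the constitutive *Hsp90ab1* was at 57.8, 60.7 and 60.6 in lung, 52.4, 49.5 and 60.9 in PB and 105, 106 and 101 in BM. Against BM, *Hsp90aa1* was called higher in lung (1.72 ± 0.052, adjusted p = 4.13e-10) and in PB (1.08 ± 0.067, 2.32e-06). For *Hsp90ab1* the differences from BM were -0.79 ± 0.032 and -0.93 ± 0.078, both below the threshold of 1 (-0.14 and -0.87 after rescaling), and lung and PB overlapped. *Hsp90aa1* shares 53.1% of its windows with other transcripts, mostly that of *Gm12346*. In the second experiment its difference between WT lung and PB was 0.11 ± 0.049 (adjusted p = 0.06), where the tissue experiment gave 0.64 ± 0.052.

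Of 6 cytosolic class A and B J proteins tested in lung against PB, 2 were called higher and none lower, with a median log2 fold change of 0.53 against -0.54 for all genes. Of 10 class C members placed in neither the ER nor the mitochondrial group, none was called higher and 2 were called lower. The median of the 10 was -0.69. Over all genes 7.75% were called higher and 19.5% lower, and the difference between the classes was not tested. *Dnajb2* (chr1:75236395-75245692), which hands ubiquitinated clients to the proteasome and is best known from neurons, was at 22.1, 21.3 and 22.6 FPKM in lung against 3.27, 3.297 and 2.45 in PB and 1.93, 2.09 and 1.52 in BM (2.53 ± 0.096 for lung against PB, adjusted p = 1.39e-07). WT of the *Piezo1* experiment gave nearly the same levels, 20.8 and 20.3 in lung and 4.37 and 4.04 in PB (2.05 ± 0.069, adjusted p = 1.76e-07). *Dnajb4*, a close relative of *Dnajb1*, was at 9.43, 10.3 and 10.1 FPKM in lung, 3.49, 3.94 and 2.9 in PB and 1.302, 0.816 and 0.734 in BM (1.30 ± 0.098 and 2.50 ± 0.10). *Dnajb1* and *Dnajb4* thus differed in their order, with *Dnajb1* highest in PB and *Dnajb4* highest in lung.

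*Dnaja1*, the abundant farnesylated partner of Hsc70, was at 79.7, 83.8 and 77.6 FPKM in lung, 57.8, 55.8 and 55.5 in PB and 26.7, 27.5 and 26.9 in BM. Its lung to PB difference was 0.50 ± 0.052 in the tissue experiment and 1.59 ± 0.045 in WT of the *Piezo1* experiment, where only the latter passed the fold change threshold. Among class C members, *Dnajc7*, which bridges Hsp70 and Hsp90, was at 10.5, 10.2 and 11.6 FPKM in lung, 26.5, 26.7 and 21.8 in PB and 34.9, 35.03 and 33.2 in BM (-1.14 ± 0.091 for lung against PB, adjusted p = 7.96e-06). *Dnajc14* was at 14.8, 15.03 and 13.9 in lung and 33.2, 31.4 and 36.96 in PB (-1.16 ± 0.072). With rescaled FPKM the values became -0.58 and -0.59 and neither was called. *Dnajc5*, the cysteine string protein of secretory vesicles, was the class C member with the highest level in BM, at 63.8, 61.5 and 62.02 FPKM against 28.9, 29.02 and 26.6 in lung (-1.12 ± 0.039 for lung against BM, -0.47 after rescaling). *Dnajc4* and *Dnajb14* were the members with the largest falls from BM to lung (-1.94 ± 0.06 and -1.66 ± 0.085), and both were also called lower in PB than in BM (-1.22 ± 0.15 and -1.06 ± 0.072). These 4 calls held after rescaling.

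In mitochondria the Hsp70 and the chaperonin parted. *Hspa9* (mortalin), which pulls proteins across the inner membrane, was at 7.02, 6.86 and 6.43 FPKM in lung, 2.64, 2.27 and 2.55 in PB and 2.16, 1.31 and 1.88 in BM (1.16 ± 0.078 for lung against PB, adjusted p = 2.78e-06), and at 8.87 and 10.1 against 2.72 and 2.89 in the second experiment (1.46 ± 0.089). The Hsp60 gene *Hspd1* was at 2.55, 2.94 and 2.82 FPKM in lung, with 4.41, 4.28 and 4.35 for PB and 5.98, 5.37 and 6.33 for BM, with a log2 fold change of -0.87 ± 0.076 for lung against BM that was below the threshold. Its cofactor *Hspe1* (Hsp10) was at 2.13, 1.44 and 1.74 in lung, 1.62, 1.84 and 1.401 in PB and 1.83, 2.02 and 1.77 FPKM in BM, and the 3 tissues overlapped. *Hspd1* and *Hspe1* are neighbours that start back to back on chromosome 1. The 30 bases printed lie before the *Hspe1* start and inside the annotated span of *Hspd1*, and are shown because they hold, in capitals, 2 overlapping matches to the heat shock element (GAA, TTC and GAA with any 2 bases between each), 1 on each strand. The element was in 198 of 32851 promoters (0.603%) and in those of *Hspd1*, *Hspe1*, *Dnajb6* and *Hsph1* among 65 members.
Hspe1, chr1:55088053-55088082, strand +: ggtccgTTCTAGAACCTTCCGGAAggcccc
The transcripts on either side of it did not move together: *Hspd1* was lower in lung than in PB (-0.51 ± 0.076, adjusted p = 3.12e-04, -0.04 after rescaling), and *Hspe1* gave 0.08 ± 0.11 (adjusted p = 0.55, 0.45 after rescaling). *Dnajc28*, a little-studied J protein, was at 0.083, 0.214 and 0.069 FPKM in lung against 2.89, 3.33 and 2.39 in PB, or 4 to 13 against 157 to 217 reads, and its log2 fold change of -1.78 ± 0.11 was called also after rescaling (-1.53). It passed the filter only through PB.

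Among the exchange factors, *Bag1* was at 30.9, 29.7 and 25.5 FPKM in lung, 38.9, 38.6 and 54.4 in PB and 34.4, 32.9 and 33.3 in BM, and *Bag6* was at 26.8, 29.2 and 26.95 in lung, 36.8, 38.2 and 35.7 in PB and 36.2, 37.9 and 37.5 in BM. Neither was called in any comparison of the tissue experiment. *Bag3*, which couples Hsp70 to autophagy and is stress-inducible, had 0 to 13 reads in these libraries and 3 to 32 in the *Piezo1* experiment. *Hspb1* (Hsp27) had 0 to 4 reads in all 17 sorted libraries.

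PB against BM compared circulating with marrow neutrophils, the latter including immature cells by their granule genes. Of 51 members tested, 8 were called higher in PB, 15.7% where 7.85% of all genes were, and 4 lower, 7.84% where 14.1% were. The 8 were *Hspa1a*, *Dnajb9*, *Hspa1b*, *Dnajb4*, *Dnajb1*, *Hsp90aa1*, *Hspa5* and *Dnaja1*. Of these, *Hspa1a*, *Hspa1b* and *Dnajb4* passed the filter of 1 FPKM only through PB. The 4 were *Hsp90b1*, *Hspa13*, *Dnajb14* and *Dnajc4*, of which *Hsp90b1* lost its call after rescaling (-0.96). For lung against BM, 9 of 48 were called higher, 18.8% where 9.86% of all genes were, and 11 lower, 22.9% where 36.0% were. With rescaled FPKM these became 14 and 3. The 2 comparisons share the BM libraries. By the methods, PB and lung suspensions passed a negative selection kit before sorting, a step not described for the sequenced BM cells. The part of this step in these differences was not tested. *Mki67*, a gene of dividing cells, was at 15.6, 16.7 and 16.2 FPKM in BM, 1.43, 1.63 and 1.31 in lung and 0.05, 0.054 and 0.053 in PB, and the part of dividing or immature cells in these differences was not tested.

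Genes that respond quickly to cell handling were measured beside the members, because the methods describe enzyme digestion of lung at warm temperature for cell suspensions, without saying whether the sequenced cells went through it. Of 15 immediate early genes, 3 were called higher and 3 lower in lung than in PB (rescaled, 5 higher and 2 lower). *Fos* was at 1224, 1205 and 1199 FPKM in lung and 1999, 2027 and 1843 in PB, against 325, 319 and 316 in BM, and *Nr4a1* was at 451, 449 and 450.3 in lung, 75.9, 79.2 and 61.7 in PB and 4.51, 4.53 and 4.64 in BM. The 15 genes summed to 13650 to 13789 FPKM in lung, 13572 to 15548 for PB and 2785 to 2826 for BM. In lung and PB against BM, 12 and 14 of the 15 were called higher and none lower. In FPKM before rescaling the early gene sums of lung and PB overlapped. Rescaling multiplied lung by 1.22 to 1.23 and PB by 0.809 to 0.821, so this overlap depends on the scaling. Single early genes differed in either direction. *Hspa1a*, *Hspa1b* and *Dnajb1* were higher in PB than in lung in FPKM. The part of cell handling in these differences was not tested.

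Of the partners of the chaperones, *Hsf1*, the heat shock transcription factor, was at 2.95, 2.802 and 3.31 FPKM in lung, 4.68, 4.41 and 3.09 in PB and 3.24, 3.41 and 3.25 in BM and was not called (-0.32 ± 0.13, adjusted p = 0.05 for lung against PB). In the second experiment it was called lower in WT lung (-1.29 ± 0.15, adjusted p = 9.14e-05), and not after rescaling (-0.73). Of the other genes of the ER and its stress response, 2 of 21 tested were called higher in lung than in PB and 3 lower. *Ppp1r15a* (Gadd34), which restores translation after stress, was at 607, 611 and 598 FPKM in lung, 103, 101 and 77.1 in PB and 4.36, 3.66 and 3.62 in BM, and *P4hb* (protein disulfide isomerase) at 124, 124 and 126 in lung against 30.04, 25.9 and 31.98 in PB. *Eif2ak3* (PERK), a sensor of ER stress, was lower in lung (-2.13 ± 0.066, adjusted p = 4.39e-08), as was *Xbp1*, at 28.9, 27.4 and 27.5 FPKM against 96.8, 97.9 and 95.8 (-1.76 ± 0.049, adjusted p = 2.58e-08). Beside the rise of *Hspa5*, then, these sensors and effectors of the response were called in both directions. Of 12 genes of the chaperonin TRiC and prefoldin tested, none was called higher and 2 lower, of 17 HSF factors and cytosolic co-chaperones 1 and 3, of 13 mitochondrial genes 0 and 1, and of 8 ubiquitin genes 1 and 1. Over all genes 7.75% were called higher and 19.5% lower. With rescaled FPKM these lists gave 0 and 0, 1 and 0, 0 and 0, and 2 and 0, and the ER genes 4 and 2. For lung against BM the counts were 4 higher and 2 lower of 22 ER genes, 0 and 6 of 14 for TRiC and prefoldin, 1 and 7 of 18 for HSF factors and co-chaperones, 0 and 4 of 12 mitochondrial genes, and 2 and 2 of 8 ubiquitin genes, where 9.86% of all genes were called higher and 36.0% lower. With rescaled FPKM these became 4 and 0, 0 and 2, 2 and 2, 0 and 1, and 2 and 1.

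The *Piezo1* comparison asked whether loss of the channel changed the profile of lung and PB neutrophils. *Piezo1* itself gave 8 reads in either WT lung library and 7 and 4 in the knockout lung libraries, while either WT blood library gave 5 and the knockout blood libraries 3 and 10. These counts overlap and are too few to check the genotype labels. In lung, 0 of 43 members tested were called in either direction by limma-trend, where 0.793% of all genes were called higher and 0.202% lower. At the same time 25 members (58.1%) had an unadjusted p below 0.05, as had 57.4% of all genes; limma-voom on recovered reads called 1 higher and 2 lower. The difference for *Hspa5* was 0.05 ± 0.025 (adjusted p = 0.12), at 496 and 481 FPKM in *Piezo1*-cKO against 477 and 466 in WT. *Hspa8* was at 203 and 192 against 154 and 156 FPKM, without overlap, a difference of 0.35 ± 0.033 (adjusted p = 3.32e-04) that was below the fold change threshold. The 5 members called higher in lung in both WT experiments, *Hspa13*, *Dnajb2*, *Hspa9*, *Hspa4l* and *Hspa5*, were called higher in *Piezo1*-cKO lung than in *Piezo1*-cKO PB as well (2.89 ± 0.088, 2.49 ± 0.09, 2.40 ± 0.11, 1.82 ± 0.096 and 1.53 ± 0.044). *Hspa13* passed the filter there only through lung. In all, 9 of 46 members were called higher there, 19.6% where 7.93% of all genes were, and 7 lower, 15.2% where 23.0% were. With rescaled FPKM these became 13 and 1.

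In PB neutrophils, 3 of 46 members were called higher in *Piezo1*-cKO, 6.52% where 1.68% of all genes were, and 1 lower, 2.17% where 1.97% were. All 4 were of low abundance. *Hspe1*, *Dnaja3* and *Dnajb13* passed the filter of 1 FPKM only through the group where they were high. These counts therefore describe the members that were measurable. *Dnajc2*, a ribosome-bound J protein, was at 5.18 and 4.82 FPKM in *Piezo1*-cKO and 1.89 and 1.94 in WT (1.04 ± 0.094, adjusted p = 4.52e-04). *Hspe1* was at 2.98 and 2.76 FPKM in *Piezo1*-cKO against 0.494 and 1.04 in WT (1.15 ± 0.16, adjusted p = 0.0014), which rests on 22 and 30 reads against 5 and 12. The other 2 were *Dnaja3*, a mitochondrial J protein (43 and 61 reads against 12 and 9), and *Dnajb13*, a J protein of sperm and cilia, with 2 and 10 reads in *Piezo1*-cKO against 49 and 54 in WT (-1.56 ± 0.15). Without WT replicate 1 the call of *Hspe1* was lost, at a log2 fold change of 0.92, and without *Piezo1*-cKO replicate 1 that of *Dnajc2*, at 1.00.

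Differences of the abundant members were smaller than 2-fold. *Hspa8* was at 307 and 285 FPKM in *Piezo1*-cKO PB against 200.1 and 196 in WT (0.57 ± 0.049, adjusted p = 3.91e-04). *Dnajb9* was at 55.9 and 55.5 against 95.6 and 90.2 (-0.73 ± 0.051, 2.74e-04) and *Dnajb1* at 42.5 and 41.1 against 62.5 and 63.8 (-0.58 ± 0.052, 4.35e-04). The groups of these 3 genes did not overlap. Markers of red cells moved with genotype in PB: the 4 erythroid genes summed to 910.2 and 971.6 FPKM in *Piezo1*-cKO PB against 20.8 and 20.9 in WT PB, and to 0.422 to 4.64 in the lung libraries. Genes of immature neutrophils summed to 2799 to 2932 FPKM in *Piezo1*-cKO PB against 1759 to 1788 in WT PB. In lung they summed to 1164 to 1166 against 888 to 905 FPKM. Neutrophil markers were lower in *Piezo1*-cKO, at 68018 to 72397 against 89547 to 92978 FPKM in lung and 110582 to 125579 against 132975 to 136685 in PB. The part of red cells and of neutrophil maturity in the genotype differences was not tested. Of the 15 immediate early genes none was called between genotypes in lung or in PB. Their sum was lower in *Piezo1*-cKO than in WT in both tissues, without overlap. It was 21723 to 22035 against 24372 to 24585 FPKM in lung and 21354 to 22359 against 24606 to 24875 in PB. The part of cell handling in the genotype differences was not tested. Of the other genes of protein folding *Fkbp5*, a partner of Hsp90, was called higher in both (1.09 ± 0.065, adjusted p = 8.46e-05 in lung and 1.25 ± 0.059, adjusted p = 7.06e-05 in PB). After rescaling the value of 1.00 in lung no longer passed the fold change threshold, and that of 1.23 in PB did.

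The 2 genotype effects were then compared directly. The difference between the effect in lung and that in PB passed an adjusted p of 0.05 for 32 of 49 members tested (65.3%), where it did so for 48.2% of all genes. It was positive for 19 (38.8%, where 29.7% of all genes were) and negative for 13 (26.5%, where 18.5% were). Requiring in addition a difference above 1 left 3 positive and 3 negative. *Hspe1* gave -1.74 ± 0.19 (adjusted p = 2.38e-04), being at 1.15 and 1.19 FPKM in *Piezo1*-cKO lung and 2.27 and 2.25 in WT lung, opposite to PB. *Dnajc9*, a J protein that chaperones histones, gave 1.42 ± 0.16 (2.71e-04), with 4.79 and 5.16 against 1.77 and 2.45 FPKM in lung and 5.35 and 5.195 against 7.21 and 8.25 in PB. For *Hspa9* the value was 0.95 ± 0.15, for *Dnajb1* 0.90 ± 0.061 and for *Dnajb9* 0.75 ± 0.064. Each of the 3 was lower in *Piezo1*-cKO than in WT in PB (-0.71 ± 0.12 for *Hspa9*), with values of 0.24 ± 0.076, 0.32 ± 0.044 and 0.02 ± 0.041 in lung. *Hspa5* gave 0.06 ± 0.05 (adjusted p = 0.35). Of the 15 immediate early genes, 8 passed an adjusted p of 0.05 with a positive and 0 with a negative difference. After rescaling these were 7 and 3.

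**Figure D4:**
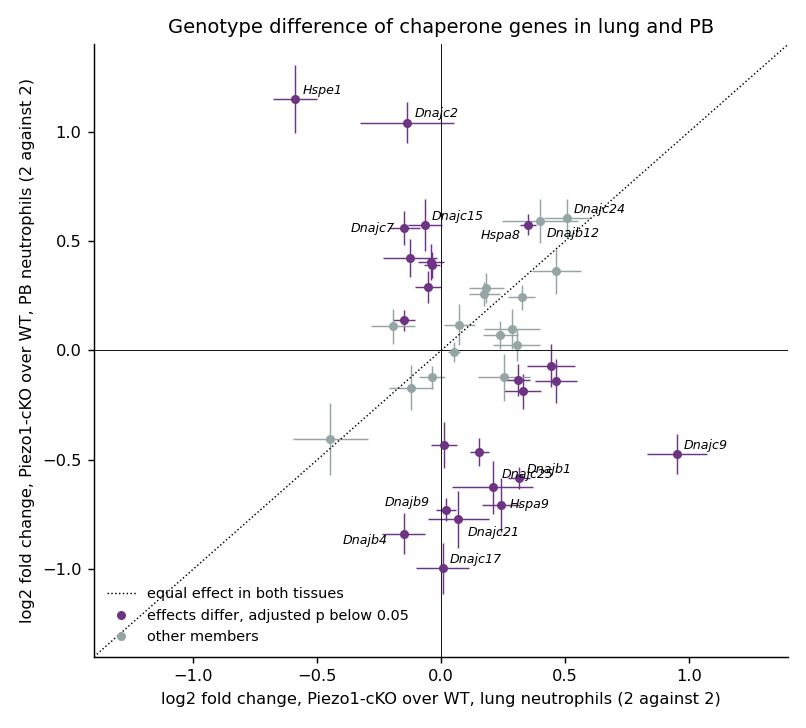
Log2 fold change of *Piezo1*-cKO over WT in lung neutrophils (x axis) and PB neutrophils (y axis) for members tested in both; bars are SE, and the dotted line marks equal effects. Purple points are members whose 2 effects differed at an adjusted p below 0.05, such as *Hspe1* at the upper left and *Dnajc9* at the right.

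In control whole lungs 70 of 81 members averaged 1 FPKM or more, against 44 in lung neutrophils, where 13931 to 14045 genes of any kind reached 1 FPKM in a control lung and 6887 to 6899 in a library of lung neutrophils. *Hspb1* was at 79.8, 67.2 and 70.1 FPKM in control lungs, *Bag3* at 18.7, 21.2 and 20.3, *Hsph1* at 9.09, 9.68 and 10.4 and *Hsp90ab1* at 411, 421 and 394. *Hspa5*, by contrast, was at 96.6, 97.8 and 112 FPKM, below every library of lung neutrophils. These levels come from tables made separately, so they are set side by side only as levels.

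After neutrophil depletion, 0 of 71 members tested were called in either direction by limma-trend, where 0.00715% of all genes, a single one, were. At an unadjusted p below 0.05 there were 14 members (19.7%), where 11.2% of all genes were, and limma without trend and robust fitting also called 0. The 3 largest positive differences were those of *Hspa1b*, *Hspa1a* and *Hsph1*. *Hspa1b* was at 44.3, 17.3 and 13.3 FPKM in depleted lungs and 3.32, 14.6 and 8.15 in controls (1.42 ± 0.56, adjusted p = 0.41), and *Hspa1a* at 26.5, 9.49 and 8.996 in depleted lungs against 2.83, 12.5 and 6.42 in controls (0.97 ± 0.54, 0.56). Both overlapped between the groups and varied several-fold among the control lungs themselves, with control replicate 1 the lowest and depleted replicate 1 the highest. *Hsph1* did not overlap, with 23.1, 15.6 and 16.8 FPKM against 9.09, 9.68 and 10.4 (0.85 ± 0.14, adjusted p = 0.15). The next was *Hspa12b*, a distant relative of Hsp70, at 19.8, 25.3 and 25.8 FPKM against 16.1, 15.1 and 13.5 without overlap (0.63 ± 0.12, adjusted p = 0.15), while the stress-inducible *Dnajb1* and *Bag3* gave 0.37 ± 0.20 and 0.12 ± 0.092. *Dnaja1* (28.0, 24.4 and 27.1 against 14.3, 18.9 and 18.8; 0.59 ± 0.12), *Hspb1* (93.4, 93.6 and 106 against 79.8, 67.2 and 70.1; 0.43 ± 0.092) and *Dnajb9* (0.38 ± 0.092) did not overlap either, with adjusted p values of 0.17, 0.18 and 0.22. In all, 14 of 71 members were higher without overlap and 4 lower, where 5.59% and 11.8% of all genes were. The largest fall was that of *Dnajc17*, at 3.70, 4.05 and 5.02 FPKM in depleted lungs against 7.43, 7.08 and 6.50 in controls. Its groups did not overlap (-0.61 ± 0.11, adjusted p = 0.15).

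Of 13 ER members tested none was called. *Hspa5* gave 0.06 ± 0.12 and *Hsp90b1* -0.01 ± 0.072, while *Dnajb9*, *Hspa13* (0.14 ± 0.072) and *Dnajc3* (0.14 ± 0.073) were higher without overlap. Of the 15 immediate early genes, none was called; *Nr4a1* was at 6.94, 8.85 and 5.0 FPKM in depleted and 17.9, 25.7 and 19.01 in control lungs and *Fos* at 9.302, 12.2 and 11.1 in depleted against 21.3, 11.1 and 8.28 in control lungs. The early genes summed to 521 to 548 FPKM in depleted lungs and 618 to 683 in controls. The 6 neutrophil markers summed to 37.0 to 115 FPKM against 195 to 252, and the 4 B cell markers to 31.4 to 67.4 against 80.4 to 85.6. Markers of fibroblasts (144 to 192 against 216 to 243), of T cells (5.21 to 8.11 against 8.56 to 10.3), of monocytes and macrophages (47.1 to 55.1 against 57.5 to 60.6) and of basophils and mast cells (0.467 to 0.891 against 1.07 to 1.59) were also lower without overlap, whereas those of epithelium (17867 to 19171 against 16181 to 18998), endothelium, platelets, erythroid cells and eosinophils overlapped. The whole lung was not sorted, and the part of tissue handling and of cell makeup in the values of *Hspa1a*, *Hspa1b* and *Hsph1* was not tested.

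**Figure D5:**
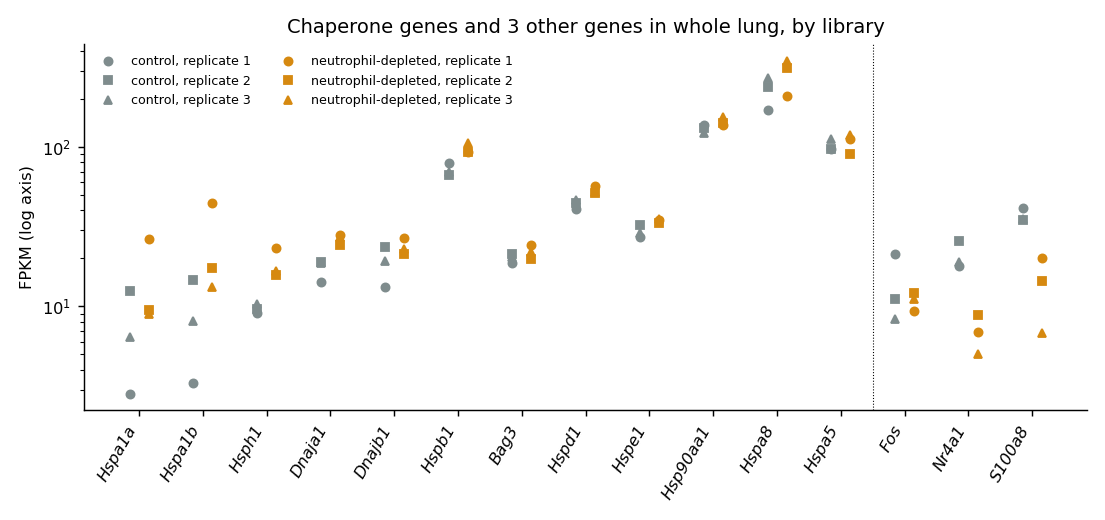
FPKM on a log axis of 12 chaperone genes, and of *Fos*, *Nr4a1* and *S100a8* to the right of the dotted line, in each control (grey) and neutrophil-depleted (orange) whole lung; symbols mark the replicate number. *Hsph1*, *Dnaja1* and *Hspb1* lie higher in all 3 depleted lungs, while *Hspa1a* and *Hspa1b* overlap between the groups.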

How the data were processed

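Neutrophils sorted from lung, PB and BM and unsorted whole lungs were sequenced as paired-end libraries. According to the methods and the submitters' processing notes, the authors trimmed reads with fastp, aligned them to mm10 with HISAT2, counted them with HTSeq and deposited FPKM per gene; versions and the strand setting are not given in the sources used here. The deposited tables of the *Piezo1* experiment also hold the authors' own fold changes and p values, which were not used. FPKM of the 17 sorted libraries were whole multiples of 1 read for every gene (tolerance 0.02), and those of whole lung were not, with 33.8% of low genes fitting.

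Genes that reached 1 FPKM in 3 or more libraries of the compared groups (2 in the *Piezo1* experiment) were tested on log2(FPKM + 1) with limma 3.58.1 in R 4.3.3 (trend and robust empirical Bayes), with Benjamini-Hochberg adjustment over all genes tested. A call needed an adjusted p below 0.05 and a log2 fold change beyond 1 (0.5 in whole lung, none for the genotype by tissue interaction). A fold change on this scale understates changes of low genes. Each comparison was fitted on the libraries of its 2 groups alone, and the interaction on the 4 groups of the *Piezo1* experiment. The tests were tried on simulated data. Alternatives were a pseudocount of 0.1, rescaled FPKM, limma-voom on recovered reads, no filter on low FPKM, all libraries of an experiment in 1 fit, limma without trend and robust fitting, the replicate number as a block, and each library left out. Named were 19 core chaperones and, per comparison, the 5 largest called rises and falls with no overlap and a mean of at least 5 FPKM in the higher group. Members outside this rule, such as *Dnajb13*, *Dnaja3*, *Hspa12b*, *Dnajc17* in whole lung and, in the tissue experiment, *Dnajc28*, were chosen after their values were seen. The members, lists and rules were chosen with earlier results of these data known. Shared sequence was counted as 75-base windows of GENCODE M21 transcripts, and coordinates are GRCm38 (mm10). Tables were handled in Python 3.11.15 with pandas 2.3.3 and numpy 2.4.6 and plotted with matplotlib 3.10.9. Read floors cover counting error only, and the SE and SD measure the spread between libraries.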

Additional observations from a re-analysis of the deposited data

Results flagged for a closer look

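The effect of *Piezo1*-cKO on a member differed between lung and PB neutrophils for 32 members at an adjusted p below 0.05 (limma-trend interaction), where 48.2% of all genes tested did. Among named members the difference, lung minus PB on the log2 scale, was positive for *Dnajc9* (1.42), *Dnajc17* (1.00), *Hspa9* (0.95), *Dnajb1* (0.90), *Dnajc28* (0.88), *Dnajb9* (0.75) and *Hsp90ab1* (0.62). It was negative for *Hspe1* (-1.74), *Dnajc2* (-1.18), *Dnajc7* (-0.71), *Dnajc15* (-0.64), *Hspbap1* (-0.55), *Dnajb6* (-0.45), *Dnaja1* (-0.43), *Bag1* (-0.34) and *Hspa8* (-0.22). The groups held 2 libraries each, too few to look for single libraries that stand apart. Erythroid genes, at 910.2 to 971.6 FPKM in *Piezo1*-cKO PB and at most 20.9 in the other libraries, moved with genotype in PB, and their part in these differences was not tested. Genes of immature neutrophils were higher in *Piezo1*-cKO in both tissues, and their part was not tested either.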

How the results depend on the processing

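Of 75 changes called for named members, 961 alternatives kept the direction and the call in 904, lost the call in 57 and reversed the direction in 0. Of those 57 losses, 17 came with rescaled FPKM, 14 with limma-voom and 12 when an absolute difference above 1 was also required. Of 258 alternatives for counts, 53 moved the count by more than 1.5 times. With rescaled FPKM the members called higher and lower were 11 and 1 for lung against PB, 14 and 3 for lung against BM, 2 lower in the *Piezo1* experiment's WT, 1 lower in its *Piezo1*-cKO, and 2 lower for genotype in PB; the other folding genes became 7 and 2, 6 lower, 7 and 5, 4 lower in the first 4 of these, and 0 higher for genotype in lung, and the early genes 5 higher and 6 higher in the 2 WT comparisons of lung against PB and 3 lower in the interaction. With limma-voom on recovered reads the counts were 11 and 1, 16 and 4, 14 and 4, and 14 higher in the 4 comparisons of lung, 1 and 2 for genotype in lung and 6 lower for genotype in PB. With a pseudocount of 0.1 the lower counts were 10, 18, 13 and 11, with 1 and 1 for genotype in lung and 5 lower in PB. By adjusted p alone the counts were 12 and 29 (lung against PB), 16 and 30 (lung against BM), 20 and 15 (PB against BM), 14 and 28, and 16 and 24 (*Piezo1* experiment), 16 and 4 (genotype in lung) and 16 and 12 (genotype in PB). A difference above 1 left 3 and 3 in the interaction. The rescaled and voom settings remove the shift of the median gene, and the causes of the other moves were not tested. Leaving out each library, where a lone library left in a group is assumed to vary like the others, gave 0 to 1 higher for genotype in lung (1 without WT replicate 2) and 1 to 2 lower in PB (2 without WT or *Piezo1*-cKO replicate 2). Calls lost that way were *Hspa13* (-0.99 without PB replicate 1) and *Hsp90b1* (-0.99 without BM replicate 2, -0.98 without PB replicate 3) in PB against BM, *Dnajb12* in *Piezo1*-cKO lung against PB (-0.98 without lung *Piezo1*-cKO replicate 2), *Hspe1* (0.92 without PB WT replicate 1) and *Dnajc2* (1.00 without PB *Piezo1*-cKO replicate 1) for genotype in PB, and *Bag1* and *Hspa8* in the interaction, *Bag1* without PB WT replicate 1, *Hspa8* without PB WT replicate 2, and either without lung WT or *Piezo1*-cKO replicate 2. The replicate numbers did not pair the libraries, with correlations of deviations from -0.09 to 0.08, and with the replicate block the counts for lung against PB were 7 and 4, within 1.5 times in every comparison. Depth limits *Hsph1*, *Bag3*, *Hspb1*, *Hspe1*, *Dnaja3* and *Dnajb13*, all under 70 reads in every sorted library.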

Other observations

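Some members differed in level between the 2 experiments on WT neutrophils of the same tissue, whose tables were made separately. *Bag6* averaged 27.7 FPKM in lung and 36.9 in PB in the tissue experiment, and 1.72 and 1.58 in the *Piezo1* experiment. *Hspa1b* averaged 1.62 and 4.52 against 0.142 and 0.179, while its neighbour *Hspa1a* averaged 1.96 and 4.08 against 1.97 and 6.21. *Dnajc13* averaged 3.86 FPKM in lung in the first and 0.179 in the second, and *Hspa4l* 28.9 and 5.49.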
